A study of Mus musculus with 12 samples.

Results

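The genes described here encode the enzymes that copy DNA and supply its building blocks. They are 43 of the 15965 genes named on the arrays, taken at every probe set of the Affymetrix U74Av2, U74Bv2 and U74Cv2 arrays that the platform annotation ties to one of them and to no other gene. This gave 74 of 36899 probe sets, and all 43 genes had at least 1. Total RNA of adult thymocytes was compared between AND-TCR transgenic mice, in which the cells were positively selected on the H-2b background, and C57BL/6 mice, which carry no transgene. The AND TCR is a rearranged receptor that recognizes MHC class II, so that selected cells enter the CD4 lineage. RNA of either group went on 2 arrays of each of the 3 types, which makes 12 arrays. The methods call these independent experiments, but no source used here ties them to separate mice, so p-values measure only the spread between hybridizations, which may be technical.

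The values are linear intensities that the authors deposited at a common mean level per array. Of these, 20.1% to 37.8% per array were negative. A detection limit set from the negative values stood at 420.8 (U74Av2), 869.4 (U74Bv2) and 1578.7 (U74Cv2), and lower values were raised to it before the log2 transform. A probe set entered the limma test when it exceeded the limit on both arrays of a group. The number of arrays limits the precision. The arrays of the 2 groups were washed on different fluidics modules throughout, so module and group cannot be told apart. They also differed in the sex-linked transcripts Xist, seen in C57BL/6 thymocytes, and Eif2s3y and Kdm5d, seen in AND-TCR transgenic thymocytes. The C57BL/6 array of the first hybridization on U74Av2 was scanned again according to its run file, and results without it are given with the limits.

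DNA replication begins when the origin recognition complex, Cdc6 and Cdt1 load the ring-shaped MCM helicase onto origins, and the kinase Cdc7 with Dbf4 and the factors Cdc45 and Mcm10 then set it in motion. Primase and polymerase α start new strands, the polymerases δ and ε extend them on the sliding clamp PCNA, and ribonucleotide reductase, thymidine kinase, thymidylate synthase and dUTPase keep deoxynucleotides in balance. In the thymus the dividing cells are mostly immature thymocytes that have just rearranged the TCR β chain, whereas small double-positive thymocytes and mature single-positive thymocytes seldom divide.

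Most replication genes had somewhat lower values in the AND-TCR transgenic samples than in C57BL/6, and no probe set of them passed the test. Of the 43 genes, 35 had a tested probe set, and of their 42 tested probe sets none had an adjusted p under 0.05 from limma, in a background where 0.568% of tested probe sets were lower and 0.483% higher. At an unadjusted p under 0.05, 9 of the 42 were lower (21.4%, against 6.51% of all tested probe sets) and none was higher (against 7.47%). These 9 belonged to Rrm2, Dut, Prim2, Tk1, Uhrf1, Pold1, Mcm5, Rfc1 and Mcm3. The number fell to 4 without the first AND-TCR transgenic hybridization and to 5 without the second C57BL/6 hybridization. In whole thymocyte RNA, fewer cells of a kind and less RNA per cell cannot be told apart.

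With each gene taken at 1 probe set, the one seen on most arrays and highest over its limit, the median log2 fold change over the 35 genes was -0.36, and that over all 7843 tested genes was 0.03. The middle 50% of these replication genes lay between -0.54 and -0.10, whereas the middle 50% of all genes lay between -0.23 and 0.28. Of the 35 genes, 31 had a negative log2 fold change (88.6%, against 47.2% of all tested genes) and 4 a positive one. The 31 include Gmnn, Pcna, Tk1 and Mcm2, which hardly differed, at 0.00, -0.01, -0.02 and -0.06. At an unadjusted p under 0.05 from limma, 6 of the 35 genes were lower (17.1%, against 6.64%) and none was higher (against 7.56%). Tk1, Pold1 and Rfc1 were not among these 6, since they reached that threshold only at another probe set. In 20 genes both AND-TCR transgenic arrays read below both C57BL/6 arrays (57.1%, against 20.9%), and in 1 gene, Cdc45, both read above (against 23.8%). Taken by hybridization number, 23 genes were lower in both pairs (65.7%, against 27.1%) and 1 was higher in both (against 31.2%). The median was -0.34 between the first hybridizations and -0.27 between the second ones. A probe set seen in only 1 group could enter the test only by differing, but 33 of the 35 genes were above the limit on all 4 arrays, with a median of -0.36 (0.02 over all genes so filtered). These shares describe a list put together with results of the arrays known, and no test was made of it.

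**Figure D1:**
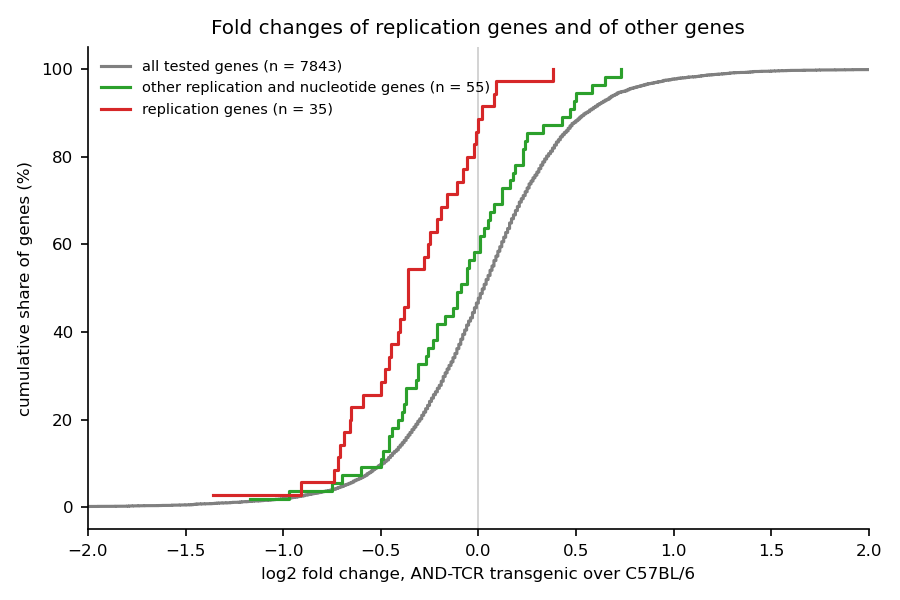
Cumulative share of genes (y axis, in percent) against the log2 ratio of AND-TCR transgenic to C57BL/6 samples (x axis), with 1 probe set per gene. The line of the 35 replication genes crosses 50% near its median of -0.36, left of the line of the 55 other replication and nucleotide genes (median -0.09) and of that of all 7843 tested genes (median 0.03).

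The 4 tested genes of nucleotide supply had negative log2 fold changes, of -1.36 for Dut, -0.66 for Rrm2, -0.46 for Rrm1 and, depending on the probe set, -0.02 or -1.22 for Tk1. Rrm2 encodes the small subunit of ribonucleotide reductase, which makes deoxynucleotides and is built up anew in each S phase. It gave intensities of 4765 and 5861 on the C57BL/6 arrays and of 3117 and 3607 on the AND-TCR transgenic arrays. The groups did not overlap, and both hybridizations showed a similar ratio, 0.654 and 0.615. The log2 fold change was -0.66 (SE, the standard error, 0.18, n = 2 per group, limma adjusted p = 0.18). Rrm1, the large subunit, had a log2 fold change of -0.46 (SE 0.21), with a ratio of 0.579 in the first hybridization and of 0.919 in the second.

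Dut encodes dUTPase, which removes dUTP so that uracil is not built into DNA, and it had the largest difference of the tested replication genes. Its U74Cv2 probe set gave 6627 and 4796 in C57BL/6 and 1982 and 2447 in AND-TCR transgenic thymocytes. The groups did not overlap, with ratios of 0.299 and 0.51 in the 2 hybridizations, but the AND-TCR transgenic values lay near the limit of 1578.7. The log2 fold change was -1.36 (SE 0.39, limma adjusted p = 0.191), and it became -0.84 with a floor at 4 in place of 2 noise SDs. The U74Av2 probe set of Dut gave 170.4, 266, 374 and 229.5 and was under the detection limit on all 4 arrays, so that it neither repeats nor contradicts this value. Tk1, the thymidine kinase that salvages thymidine in S phase, is described below with the other genes whose probe sets disagreed. Tyms, thymidylate synthase, was under the limit on all 4 arrays at its only unambiguous probe set.

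**Figure D2:**
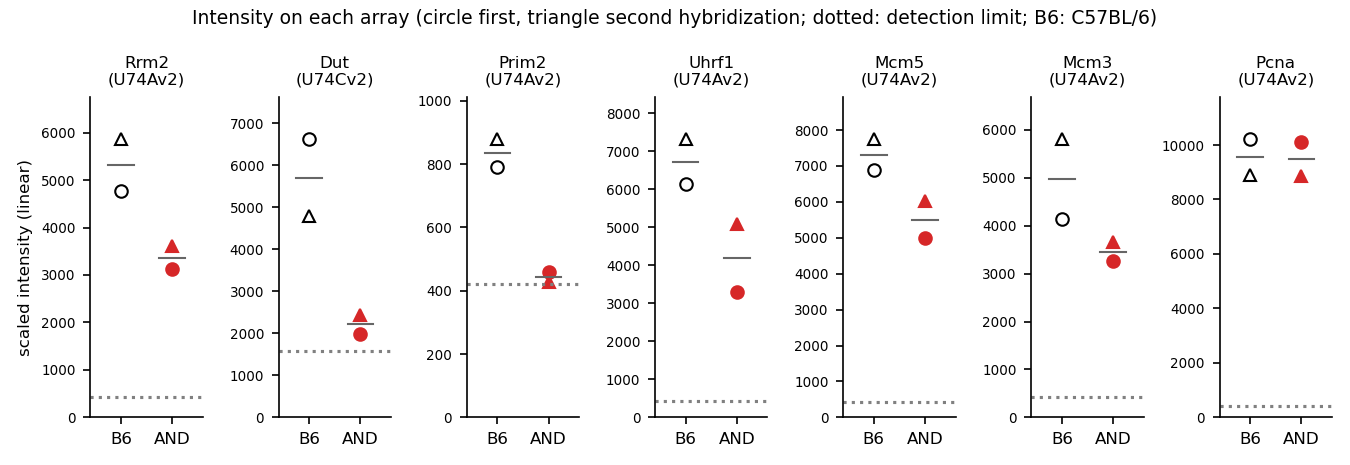
Scaled intensity on a linear axis from 0 for Rrm2, Dut, Prim2, Uhrf1, Mcm5, Mcm3 and, for comparison, Pcna on each array, with C57BL/6 in open and AND-TCR transgenic thymocytes in filled symbols. Horizontal bars are means of 2 hybridizations and dotted lines the detection limit of the array type. In the first 6 genes the filled symbols lie below the open ones, in Pcna they lie at the same height, and Prim2 lies near the limit.

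The MCM helicase is a ring of 6 subunits, of which 5 had a tested probe set. All 5 had negative log2 fold changes, from -0.50 to -0.06 (against 47.2% of all tested genes). In 4 of them both AND-TCR transgenic arrays read below both C57BL/6 arrays (80%, against 20.9%). Further tested probe sets of Mcm5 and Mcm3, described below, had positive log2 fold changes and overlapping groups. Mcm5 gave 6890.2 and 7747 in C57BL/6 and 4981 and 6031 in AND-TCR transgenic thymocytes. Its log2 fold change was -0.41 (SE 0.16, limma adjusted p = 0.322). Mcm3 gave 4135 and 5807 against 3268 and 3656, a log2 fold change of -0.50 (SE 0.21, limma adjusted p = 0.348), so that its C57BL/6 arrays differed from each other by more than its AND-TCR transgenic arrays did. Without the second C57BL/6 hybridization its log2 fold change was -0.26. Mcm7 and Mcm4 had log2 fold changes of -0.36 each, with SEs of 0.15 and 0.23. Mcm2 was the exception, at -0.06 (SE 0.19), with 2819 and 3404 in C57BL/6 and 2914 and 3032 in AND-TCR transgenic thymocytes. Mcm6 was under the limit on all 4 arrays at each of its 3 probe sets.

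Replication genes are known targets of the E2F factors, which bind sites such as TTTCCCGC and TTTGGCGC. These letters were searched on both strands in the 250 bases before each gene's start in the RefSeq annotation of GRCm38.p6. The promoters of 38 of the 43 genes were in the table used, and 5 held a match (13.2%, against 1.51% of all genes and 3.22% of tested genes). The windows of these 5 genes are printed on the gene's own strand, 5′ to 3′, with the match in capitals (GCGGGAAA and GCGCCAAA are the matches read from the other strand), to show where such sites lie in genes of the helicase, of polymerase α and of licensing.
Mcm5 (chr8:75109320-75109407, + strand): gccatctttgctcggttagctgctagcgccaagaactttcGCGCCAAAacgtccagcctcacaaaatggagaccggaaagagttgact
Mcm6 (chr1:128359706-128359855, - strand): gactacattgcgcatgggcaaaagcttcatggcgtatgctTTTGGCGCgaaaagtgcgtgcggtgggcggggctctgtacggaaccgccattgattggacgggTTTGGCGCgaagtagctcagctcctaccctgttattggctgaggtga
Mcm7 (chr5:138172001-138172088, - strand): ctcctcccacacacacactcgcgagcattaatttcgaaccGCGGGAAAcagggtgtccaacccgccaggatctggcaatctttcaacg
Pola1 (chrX:93632246-93632333, - strand): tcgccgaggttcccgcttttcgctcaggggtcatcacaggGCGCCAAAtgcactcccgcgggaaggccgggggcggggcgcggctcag
Cdc6 (chr11:98907973-98908060, + strand): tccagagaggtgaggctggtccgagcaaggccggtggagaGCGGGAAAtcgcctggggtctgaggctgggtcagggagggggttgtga
The match of Mcm5 begins 149 bases before the start, and Mcm6 holds 2 matches, at 110 and 47 bases. The match of Mcm7 lies before 1 of its 2 annotated starts. Of these genes, Mcm5, Mcm7, Pola1 and Cdc6 had negative log2 fold changes, of -0.41, -0.36, -0.69 and -0.21, and Mcm6 was not measured above the limit. Negative values were found in 31 of the 35 tested replication genes (88.6%), most of them without a match. Rrm2, Dut, Uhrf1 and Mcm3 held no match, and the promoter of Prim2 was not in the table used. Whether a match goes with a lower value was not tested. A match shows only that the letters are present in this window.

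The genes of origin licensing differed little between the groups. Cdt1, which brings the helicase to origins, had a log2 fold change of -0.19 (SE 0.20). Its inhibitor geminin, encoded by Gmnn, had 0.00 (SE 0.32), with 943 and 1077 in C57BL/6 and 1117.5 and 904.5 in AND-TCR transgenic thymocytes. Cdc6 had -0.21 (SE 0.30). Orc1 and Orc2, subunits of the origin recognition complex, had no probe set above the limit on both arrays of a group.

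Among the genes of origin firing, Cdc45 was the replication gene with the most positive value. It gave 593 and 500.3 in C57BL/6 and 645 and 777.5 in AND-TCR transgenic thymocytes, with a log2 fold change of 0.38 (SE 0.28, limma adjusted p = 0.62) that became 0.24 without the second AND-TCR transgenic hybridization. The groups did not overlap, but all 4 values lay near the limit of 420.8, and its U74Cv2 probe set was under the limit on all 4 arrays. Mcm10, which joins the helicase at firing, had -0.28 (SE 0.24), with ratios of 0.81 and 0.832. Its values also lay near the limit, at 551.1 and 586.2 in C57BL/6 and 446.4 and 487.7 in AND-TCR transgenic thymocytes. Cdc7, the firing kinase, had -0.26 (SE 0.30), and its partner Dbf4 was under the limit on all 4 arrays.

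Polymerase and primase genes centered on a median of -0.48 on the log2 scale over 6 tested genes. Prim2, the large subunit of primase, gave 789.7 and 879 in C57BL/6 and 459.7 and 427 in AND-TCR transgenic thymocytes, a log2 fold change of -0.91 (SE 0.27, limma adjusted p = 0.194). Its groups did not overlap, and its AND-TCR transgenic values lay just above the limit of 420.8. Prim1, the catalytic subunit of primase, showed 1.04 in the first hybridization and 0.425 in the second, so that its log2 fold change of -0.59 (SE 0.39) rested on the second. Pola1, the catalytic subunit of polymerase α, had -0.69 (SE 0.31), with 1146 and 1198 against 777 and 682. Its partner Pola2 had -0.16 (SE 0.27). The 4 subunits of the polymerase α-primase complex were all negative, without passing the test. Pold1, the catalytic subunit of polymerase δ, had lower AND-TCR transgenic values at both of its tested probe sets in both hybridizations, with log2 fold changes of -0.38 and, with 1 AND-TCR transgenic array under the limit, at -0.72.

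Pole, the catalytic subunit of polymerase ε, had the second most positive log2 fold change, 0.09 (SE 0.25, limma adjusted p = 0.912). It gave 4965 and 3897 in C57BL/6 and 3820.1 and 5756 in AND-TCR transgenic thymocytes. The groups overlapped, the ratio was 0.769 in the first hybridization and 1.48 in the second, and the sign of the fold change turned without the second hybridization of either group, to -0.08 and -0.20. Pold2, a second subunit of polymerase δ, was under the limit on all 4 arrays.

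Neither the sliding clamp nor a subunit of its loader passed the test. Pcna, the clamp, gave 10215.5 and 8895 in C57BL/6 and 10124 and 8876 in AND-TCR transgenic thymocytes. Each hybridization thus returned almost the same value in both groups, and the log2 fold change was -0.01 with a 95% interval of -0.36 to 0.34. The subunits of replication factor C, which opens the clamp and places it on DNA, had log2 fold changes of -0.74 for Rfc5, -0.72 for Rfc4, -0.45 for Rfc3, -0.40 for Rfc2 and -0.08 for Rfc1, with SEs between 0.24 and 0.34. In Rfc2, Rfc3, Rfc4 and Rfc5 both AND-TCR transgenic arrays read below both C57BL/6 arrays, although 1 AND-TCR transgenic array of Rfc3 lay under the limit. Over the 6 tested genes of the clamp and its loader this was 66.7%, against 20.9% of all tested genes. The difference between Pcna and the loader genes was not tested.

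Replication protein A coats single-stranded DNA, and none of its 3 subunits passed the test. Rpa3 had a log2 fold change of -0.65 (SE 0.30), with 3157 and 1940.4 in C57BL/6 and 1546 and 1619.8 in AND-TCR transgenic thymocytes. Rpa1 had -0.25 (SE 0.26), with ratios of 1.17 and 0.606 in the 2 hybridizations. Rpa2 gave 398 and 563.5 against 500.2 and 531, with 1 C57BL/6 array under the limit and a log2 fold change of 0.08 (SE 0.26, limma adjusted p = 0.925), which turned to -0.13 without the first C57BL/6 hybridization. Fen1, the nuclease that trims Okazaki fragments, had 0.02 (SE 0.31). Lig1, the ligase that seals them, was above the limit on 2 of 4 arrays, 1 in each group, and was not tested.

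Among the genes that act on the copied chromatin, Uhrf1 had the largest difference. Uhrf1 recognizes hemimethylated DNA behind the fork and brings in the methyltransferase Dnmt1. It gave 6129 and 7316 in C57BL/6 and 3291 and 5075 in AND-TCR transgenic thymocytes, which did not overlap. Its log2 fold change was -0.71 (SE 0.23, limma adjusted p = 0.237), and -0.40 without the first AND-TCR transgenic hybridization. With the hybridization number as a replicate block it was the only replication probe set that passed, with a limma adjusted p of 0.0398, where 1.18% of all tested probe sets were called lower. Dnmt1 itself had -0.11 (SE 0.18), with 5044 and 6133 against 4606 and 5762, a smaller difference than that between its hybridizations. Chaf1b, a subunit of the histone chaperone CAF-1, had ratios of 0.496 and 1.03, and Chaf1a was under the limit on all 4 arrays. Top2a, the topoisomerase that untangles copied chromosomes, had a log2 fold change of -0.36 (SE 0.19), with 3201 and 3261 against 2603 and 2441.

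**Figure D3:**
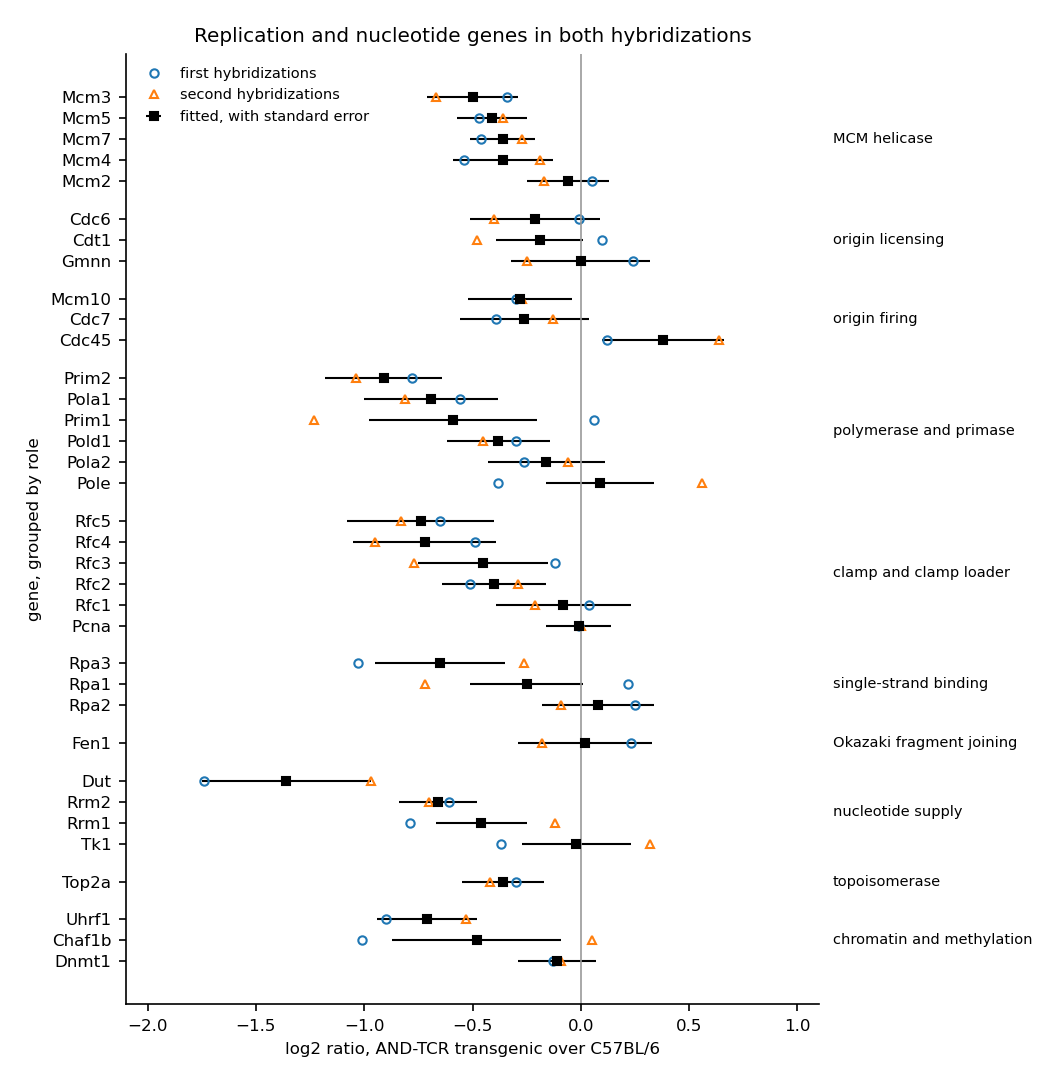
Log2 ratio of AND-TCR transgenic over C57BL/6 thymocytes (x axis) for the 35 tested genes, grouped by role (y axis). Circles show the first and triangles the second hybridizations, and squares the fitted value ± SE (n = 2 per group). Most squares lie left of 0, from Dut at -1.36 to Cdc45 at 0.38, and Pcna lies at -0.01.

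Several genes were measured by more than 1 probe set, and these did not always agree. Of the 43 genes, 20 had several probe sets, and 6 of these had several that were tested. Tk1 gave 2590.5 and 1871 in C57BL/6 and 1312 and 685 in AND-TCR transgenic thymocytes at its U74Av2 probe set, a log2 fold change of -1.22 (SE 0.39, limma adjusted p = 0.237). At a U74Cv2 probe set it gave 9358 and 7046 against 7249.6 and 8812, a log2 fold change of -0.02 (SE 0.25), and the 4 further ones exceeded the limit on at most 1 array each. The first probe set has non-overlapping groups and the second does not, and which of them follows the Tk1 transcript was not tested. The name of the second ends in r_at, which Affymetrix gave to probe sets chosen under relaxed design rules.

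Mcm5 showed the same split, since its r_at probe sets on U74Av2 and U74Cv2 had log2 fold changes of 0.24 and 0.04 (SEs 0.38 and 0.36). Mcm3 was at 0.10 (SE 0.38) at its other probe set, with ratios of 1.57 and 0.732. Rfc1 was at least 1.58-fold lower at a probe set whose AND-TCR transgenic values were both under the limit (limma adjusted p = 0.338). The 2 tested probe sets of Pold1 had the same sign in both hybridizations. Those of Cdt1 had negative log2 fold changes, -0.19 and -0.35, but went opposite ways within each hybridization. The ratios were 1.07 and 0.715 at one and 0.468 and 1.31 at the other. With the mean over the tested probe sets of a gene, 31 of the 35 genes stayed below 0.

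**Figure D4:**
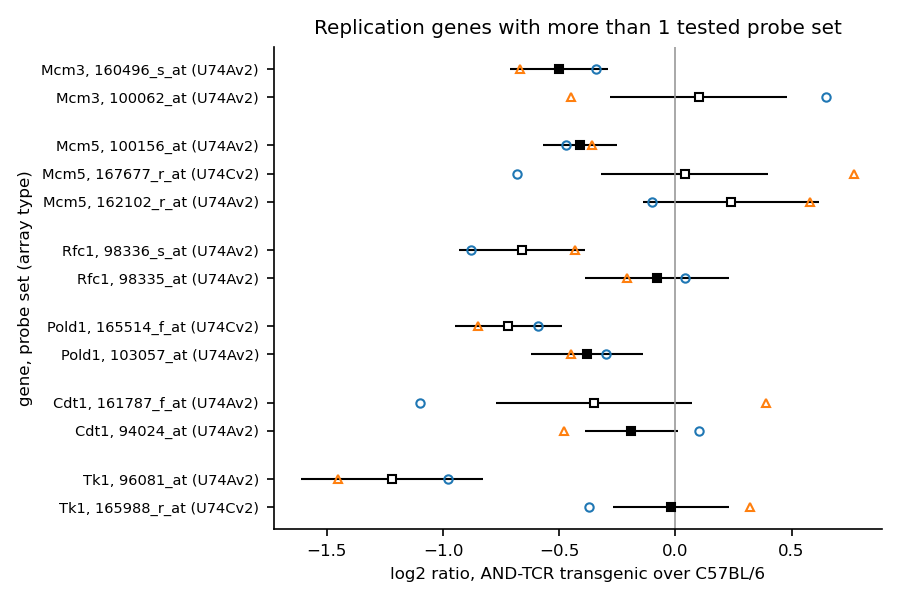
Log2 ratio of AND-TCR transgenic over C57BL/6 thymocytes (x axis) at each tested probe set of the 6 genes with several (y axis). Circles show the first and triangles the second hybridizations, squares the fitted value ± SE, and filled squares the probe set that stands for the gene. The probe sets of Tk1 lie at -1.22 and -0.02, while both probe sets of Pold1 lie left of 0.

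Other genes of DNA replication and of nucleotide metabolism, listed by function, spread more evenly around 0. Of 73 listed genes 68 were on the arrays and 55 were tested, with a median log2 fold change of -0.09. Of these, 32 were negative (58.2%, against 47.2% of all genes). In limma 1 was lower at an adjusted p under 0.05 (against 0.599% of all genes) and none was higher (against 0.612%). At an unadjusted p under 0.05 these were 5 (9.09%, against 6.64%) and 3 (against 7.56%). The one lower at an adjusted p under 0.05 was Dck, deoxycytidine kinase of the nucleoside salvage pathway. It gave 11847 and 13938 in C57BL/6 and 6869 and 6239 in AND-TCR transgenic thymocytes. Its log2 fold change was -0.97 (SE 0.15, limma adjusted p = 0.0364). The histone-binding CAF-1 subunit Rbbp4, the phosphoribosyl pyrophosphate synthetase Prps2, the RNase H2 subunit Rnaseh2b and the origin recognition subunit Orc6 had log2 fold changes of -1.17, -0.75, -0.37 and -0.70 at an unadjusted p under 0.05. Recql4, a helicase of replication start, Chtf8, of an alternative clamp loader, and Atic, of purine synthesis, had positive values of 0.65, 0.58 and 0.73 at the same threshold. For Recql4, 1 C57BL/6 array was under the limit. Further tested probe sets of Rnaseh2b had overlapping groups, at 1458 and 1746 against 1480 and 1775, and at 2830 and 2035.5 against 2460.5 and 2472.5. A further one of Atic also overlapped, at 639.6 and 2116 against 1933.5 and 1332.6. Those of Prps2 were lower in AND-TCR transgenic thymocytes as well.

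Of 18 tested regulators of the entry into S phase, 1 was lower (against 0.599% of all genes) and none was higher (against 0.612%) at an adjusted p under 0.05 from limma. At an unadjusted p under 0.05, 5 were lower (27.8%, against 6.64%) and none was higher (against 7.56%). The lower gene was E2f2, which encodes a transcription factor of replication genes, with 6405 and 7185 in C57BL/6 and 2305 and 2172.5 in AND-TCR transgenic thymocytes. Its log2 fold change was -1.60 (SE 0.16, limma adjusted p = 0.0213). The regulators had a median of -0.07. Myb, a transcription factor of immature hematopoietic cells, and Ccna2, cyclin A of S phase, had -0.72 and -0.51 (limma adjusted p = 0.126 and 0.261), and the E2F family member E2f4 had -0.90 (limma adjusted p = 0.226), with a ratio of 0.754 in the first hybridization and of 0.38 in the second. E2f7, of the same family, was at least 1.36-fold lower at values under the limit in both AND-TCR transgenic samples (limma adjusted p = 0.261). Cdk2 had 0.03 and Cdc25a -0.02, and the most positive values were those of cyclin E2, Ccne2, at 0.50 (SE 0.43) and of E2f6 at 0.37 (SE 0.17).

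The lists of thymocyte stages gave medians on either side of 0. A list of double-positive thymocytes had a median log2 fold change of -1.08 over 14 tested genes, of which 13 were negative and 7 passed limma as lower (against 0.599% of all genes). Its summed signal, in multiples of the detection limit over 14 genes, was 513 and 511 in C57BL/6 and 228 and 254 in AND-TCR transgenic thymocytes, with no gene always under the limit. A list of mature single-positive thymocytes had a median of 1.31 over 13 tested genes, of which 6 passed as higher (against 0.612%), with summed signals of 96.9 and 99.5 against 225 and 219. Several genes of both lists were known from these arrays to differ, so their counts are no independent evidence of a direction. A list of early thymocytes, in which most division takes place, had a median of -0.23 over 8 tested genes, with summed signals of 138 and 129 against 78.9 and 100 over 11 genes. Among them Ptcra, the pre-TCR α chain, had -0.17 (SE 0.28) and Notch3 -0.30 (SE 0.29). The Notch target Dtx1 was 2.61-fold higher (limma adjusted p = 0.0341). A further tested probe set of Dtx1 had overlapping groups, at 963.5 and 2296 against 2410 and 1935, with the first C57BL/6 value under the limit. Dntt, which is also on the list of double-positive thymocytes, had -1.16 (limma adjusted p = 0.0589). It was the largest entry of the sum, with intensities of 36295 and 34112 in C57BL/6 and 12660 and 19541 in AND-TCR transgenic thymocytes. Most of the difference in the summed signal of the early list came from Dntt.

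Markers of other cells were also measured. The B cell markers centered on a log2 fold change of -0.36 over 5 tested genes, none of which passed the limma test. At an unadjusted p under 0.05, 2 of the 5 were lower (40%, against 6.64% of all genes). The B cell list summed to 57 and 62 in C57BL/6 and to 44.5 and 47.1 in AND-TCR transgenic thymocytes over 7 genes. Cd22 was under the limit on all 4 arrays and Cd79a above it in C57BL/6 alone. Ighm, the immunoglobulin μ chain, which makes up most of this sum, gave 19965 and 22305 against 16012 and 16775. Its further tested probe sets did not all agree, with 5665 and 6197 against 2820 and 1768.5 at one and 3520 and 4573 against 3601 and 4186 at another. Pax5 had a positive log2 fold change of 0.56 (SE 0.35). The myeloid list summed to 15.1 and 20 against 22.7 and 20.1, with a median log2 fold change of 0.34 over 7 tested genes. Of the 5 erythroid genes only the globin Hba-a1 was above the limit, at 9710 and 11407 against 6639 and 4378. Of 9 genes of stromal cells 4 were always under the limit, and the list summed to 4.08 and 4.92 against 6.31 and 9.69. Housekeeping genes centered on a log2 fold change of 0.01 over 10 tested genes, none of which passed the limma test. At an unadjusted p under 0.05, 1 of the 10 was higher (against 7.56% of all genes). The part of these cell markers in the values of the replication genes was not tested. The sex-linked difference coincided with the groups, so its part cannot be told apart from that of the transgene.

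**Figure D5:**
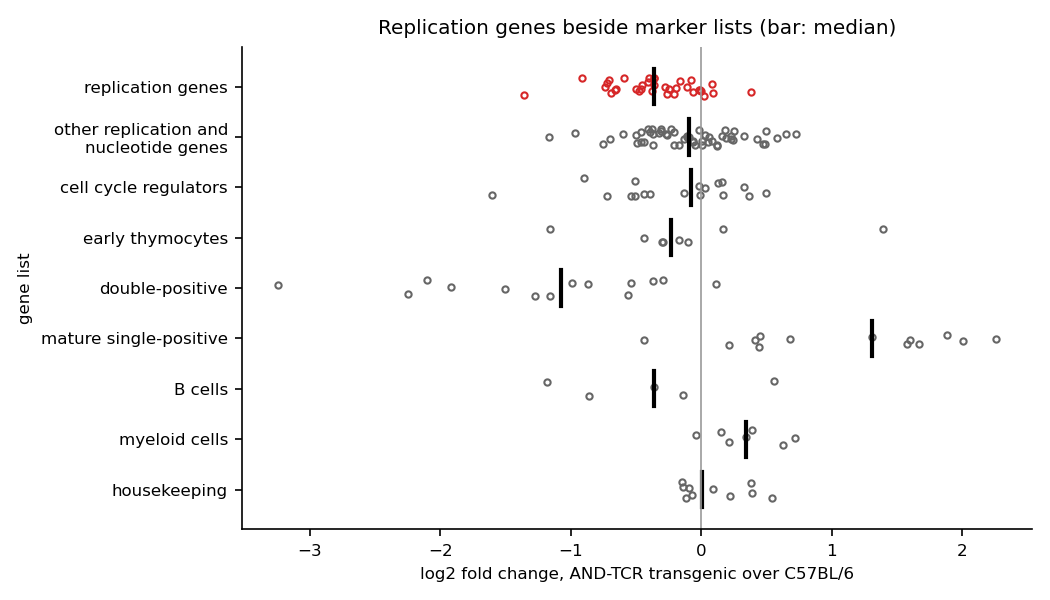
Fitted log2 ratio of AND-TCR transgenic to C57BL/6 samples (x axis) for each tested gene of the lists (y axis), 1 point per gene with bars at the medians. The replication genes center on -0.36, between the double-positive markers at -1.08 and the housekeeping genes at 0.01, while the mature single-positive markers center on 1.31.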

How the data were processed

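Biotinylated cRNA from thymocyte RNA had been hybridized by the authors to U74Av2, U74Bv2 and U74Cv2 arrays and read out with Affymetrix Microarray Suite 4.0. They deposited 1 linear intensity per probe set and array. How it was summarized from the probes, and to what target it was scaled, was not stated in the sources. Every array was multiplied by 1 factor to a common mean, after trimming 2% at each end. Noise SD was 1.4826 times the median size of negative values, and the limit was 2 noise SDs. Affymetrix control probe sets were left out, and 12844 of the other 36701 probe sets entered limma 3.58.1 (R 4.3.3, lmFit, eBayes with a trend), 1 fit per array type, adjusted together by the Benjamini-Hochberg method at 0.05. A fold against arrays under the limit is a lower bound.

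Genes were named from the platform annotation, and all 43 symbols matched the gene identifiers of RefSeq (GRCm38.p6). Array types were normalized separately, and signal over the limit was compared between them only to choose 1 probe set per gene. The genes and lists were chosen with earlier results of these data known. Values on each array are given for genes whose chosen probe set had an unadjusted p under 0.05 and for the 3 most positive; those of Pcna, Tk1 and others were added after their values were seen. Arrays with the same hybridization number were run on the same day, 1 array of each group per array type, which is the basis of the replicate block; their deviations from the group means correlated at 0.035, -0.119 and -0.232 on the 3 array types. Alternatives covered scaling, floor, filter, transform, prior variance, block, choice of probe set and each left-out hybridization. Plots were made in Python 3.11.15 with matplotlib 3.10.9.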

Additional observations from a re-analysis of the deposited data

How the results depend on the processing

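The median of the replication genes stayed negative under every alternative run, and no probe set of them was called higher where calls were recomputed, which was not done for the choice of probe set, U74Av2 alone or single hybridizations. The median was -0.26 without a filter on low values, where 33 of 43 genes were negative and 1 probe set, that of Dut, was called lower (adjusted p = 0.0239 from limma), although the prior variance is unreliable there because many floored values are identical. With the replicate block 1 probe set, that of Uhrf1, was called lower, and the block changed no other call of the replication genes. With any 1 hybridization removed, where the remaining array of that group is taken to vary as the other group does, none was called, 4 to 6 were lower at an unadjusted p under 0.05, the median ran from -0.37 to -0.26, and between 28 and 31 of 35 genes were negative (27 of 29 tested with a floor at 4 noise SDs). Without the first C57BL/6 hybridization, which holds the array that was scanned again, the median was -0.37. The log2 fold change then ran from -0.20 to 0.39 for Pole and from -0.13 to 0.29 for Rpa2, reversing in 2 and in 1 of 4 cases. In the second hybridizations alone, added after the data were seen, the median was -0.27. The median of the other replication and nucleotide genes was -0.05 without the filter, -0.13 with the mean over probe sets, -0.17 on U74Av2 alone, -0.12 in the second hybridizations and between -0.12 and -0.08 without 1 hybridization. The cause of these shifts was not tested. Signal over background limits Dut, Prim2, Cdc45, Mcm10, Rfc3 and Rpa2, and leaves 8 genes without a test.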
